A study of Mus musculus with 11 samples.

Results

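The mucus genes described here are 10 genes by which intestinal goblet cells make and secrete their gel: Muc2, Fcgbp, Clca1, Zg16, Tff3, Spink4, Agr2, Atoh1, Spdef and Creb3l1. They were chosen by symbol from the 31168 genes of the count table, and all 10 were found. RNA had been taken from the whole wall of the distal ileum, in pieces of 2 cm, of mice given dextran sodium sulfate, a polysaccharide that injures the intestinal lining. The 6 WT mice were H2-Ab1 fl/fl; Villin:Cre- and the 5 dIEC mice were H2-Ab1 fl/fl; Villin:Cre+. All 11 mice therefore carried the floxed allele of H2-Ab1, which encodes the I-A beta chain of MHC class II, and all had received dextran sodium sulfate, so there was no untreated group. The Villin promoter drives Cre in the intestinal epithelium as a whole, goblet cells included, and not in goblet cells alone. No source used here gives age, sex, or the dose and duration of treatment. The comparison asks how the ileum's RNA differs with and without Cre in the epithelium.

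Goblet cells are secretory cells of the intestinal epithelium. Muc2 is the gel-forming mucin of intestinal mucus: it is folded and disulphide-bonded in the endoplasmic reticulum, heavily O-glycosylated in the Golgi, packed into granules and unfolded on release. In the ileum the gel is loose and easily removed, and it carries antimicrobial proteins between the villi. Atoh1 commits crypt cells to the secretory lineage, Spdef acts later in goblet cell maturation, and Creb3l1 is a transcription factor held in the endoplasmic reticulum membrane that takes part in the terminal maturation of these cells.

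To show what lies directly before the start of these genes, the 250 bases upstream were taken from RefSeq on GRCm38.p6. It held a window for 5 of the 10 members (Muc2, Fcgbp, Agr2, Spdef and Atoh1). Positions are counted from the RefSeq start, whereas the gene coordinates given below are those of GENCODE. For Spdef and Agr2 these starts differ, and the window runs into the GENCODE gene. The windows of the mucin, of the other large mucus protein and of the goblet cell factor Spdef are printed 5′ to 3′ on the strand of the gene, with every match of a searched motif in capitals. Muc2 lies at chr7:141690090-141690339 (+ strand), Fcgbp at chr7:28070986-28071235 (+ strand) and Spdef at chr17:27728952-27729201 (- strand).
Muc2: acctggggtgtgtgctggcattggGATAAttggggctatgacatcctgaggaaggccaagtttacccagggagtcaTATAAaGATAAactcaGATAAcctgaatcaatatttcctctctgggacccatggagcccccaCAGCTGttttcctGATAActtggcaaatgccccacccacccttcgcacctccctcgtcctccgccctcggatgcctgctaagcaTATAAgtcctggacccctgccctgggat
Fcgbp: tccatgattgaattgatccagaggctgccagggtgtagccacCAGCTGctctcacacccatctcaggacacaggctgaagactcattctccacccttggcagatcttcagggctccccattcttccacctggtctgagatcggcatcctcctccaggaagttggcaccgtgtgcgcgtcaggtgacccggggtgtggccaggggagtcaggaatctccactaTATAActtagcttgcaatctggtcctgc
Spdef: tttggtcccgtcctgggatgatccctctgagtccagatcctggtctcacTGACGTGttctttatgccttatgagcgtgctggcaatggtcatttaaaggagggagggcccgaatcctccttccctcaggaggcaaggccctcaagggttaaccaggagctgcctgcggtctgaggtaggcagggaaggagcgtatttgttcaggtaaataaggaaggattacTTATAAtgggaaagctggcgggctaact
Motifs were searched on both strands. A percentage of windows counts those with any match, at any position and on either strand. Basic helix-loop-helix factors such as Atoh1 can bind E-boxes, for which CAGCTG was searched, along with a second form, CAGATG. For Ets-type factors such as Spdef the letters were CCGGAT, and for factors of the Creb3 family they were TGACGTG. The GATA factors of the gut were represented by GATAA, and the TATA box by TATAA. The first of these, CAGCTG, stood in the Muc2 window at -112 to -107 and in the Fcgbp window at -208 to -203, counted back from the base before the start as -1, and 13% of all 32851 windows of this length held it. TGACGTG stood in the Spdef window at -201 to -195, against 1.65% of all windows. TATAA stood at -28 to -24 in all 3 printed windows, on the gene's own strand in Muc2 and Fcgbp. In Spdef that match was on the opposite strand and overlapped a match on its own strand at -27 to -23. At any position, TATAA was held by 22.8% of all windows, and the share with it at -28 was not computed. GATAA occurred 4 times in the Muc2 window, at -226, -168, -158 and -99 for its first base. Any match of it was held by 22.6% of all windows, and the share with 4 was not computed. The windows of Agr2 and Atoh1 held none of the 6 motifs, and no printed window held CAGATG (14.4% of all windows) or CCGGAT (4.94%). A match describes letters and is no evidence of binding.

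Values are given as CPM, counts per 1000000 counts of the genes kept for testing, with library sizes scaled by TMM factors. The libraries held 6603965 to 9681698 counts, of which 26.2 to 49.2% were ribosomal and 22.9 to 37.3% came from protein-coding genes other than Lars2. The 10 mucus genes together took 1.62 to 2.34% of those protein-coding counts. The library of each mouse was checked against its label through H2-Ab1, which averaged 83.1 ± 27.4 CPM over the WT libraries (SD, n = 6, range 47.5 to 112) and 26.0 ± 9.87 CPM over the dIEC libraries (n = 5, range 16.8 to 39.2), with no overlap (log2 fold change -1.68, SE 0.28, edgeR adjusted p = 0.361, two-sided exact permutation p = 0.00433, the smallest that 462 splits allow). The ileal bile acid genes Fabp6 and Slc10a2, looked up to check the tissue, held 80.0 to 398 and 49.6 to 407 CPM over the 11 libraries, while the colonic gene Car1 reached at most 2.88 CPM. Car1 does not stand for every colon marker. It belonged to a list of 12, of which the 10 present summed to 142 to 274 CPM in WT and 183 to 365 CPM in dIEC. Among 15911 genes tested, edgeR's quasi-likelihood test called 1 at an adjusted p under 0.05, the metallothionein Mt1.

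No difference between WT and dIEC was detected for any of the 10 mucus genes. All 10 passed the filter on low counts. None was past the adjusted threshold, against 0.00628% of all genes tested, and none had an unadjusted edgeR p under 0.05, against 10.7% of all genes. Of the members, 5 had a log2 fold change above 0 (48.8% of all genes) and 5 below 0 (51.2%), with a median of -0.02 beside -0.01 over all genes. The 95% interval of every one of the 10 lay within a 2-fold change in either direction, as it did for 86.4% of all genes. By the two-sided exact permutation test of CPM, no member had p under 0.05, against 7.94% of all genes. In no member did the values of both groups stand apart, which they did for 0.566% of all genes. In whole tissue, fewer goblet cells and less RNA per goblet cell cannot be told apart.

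**Figure D1:**
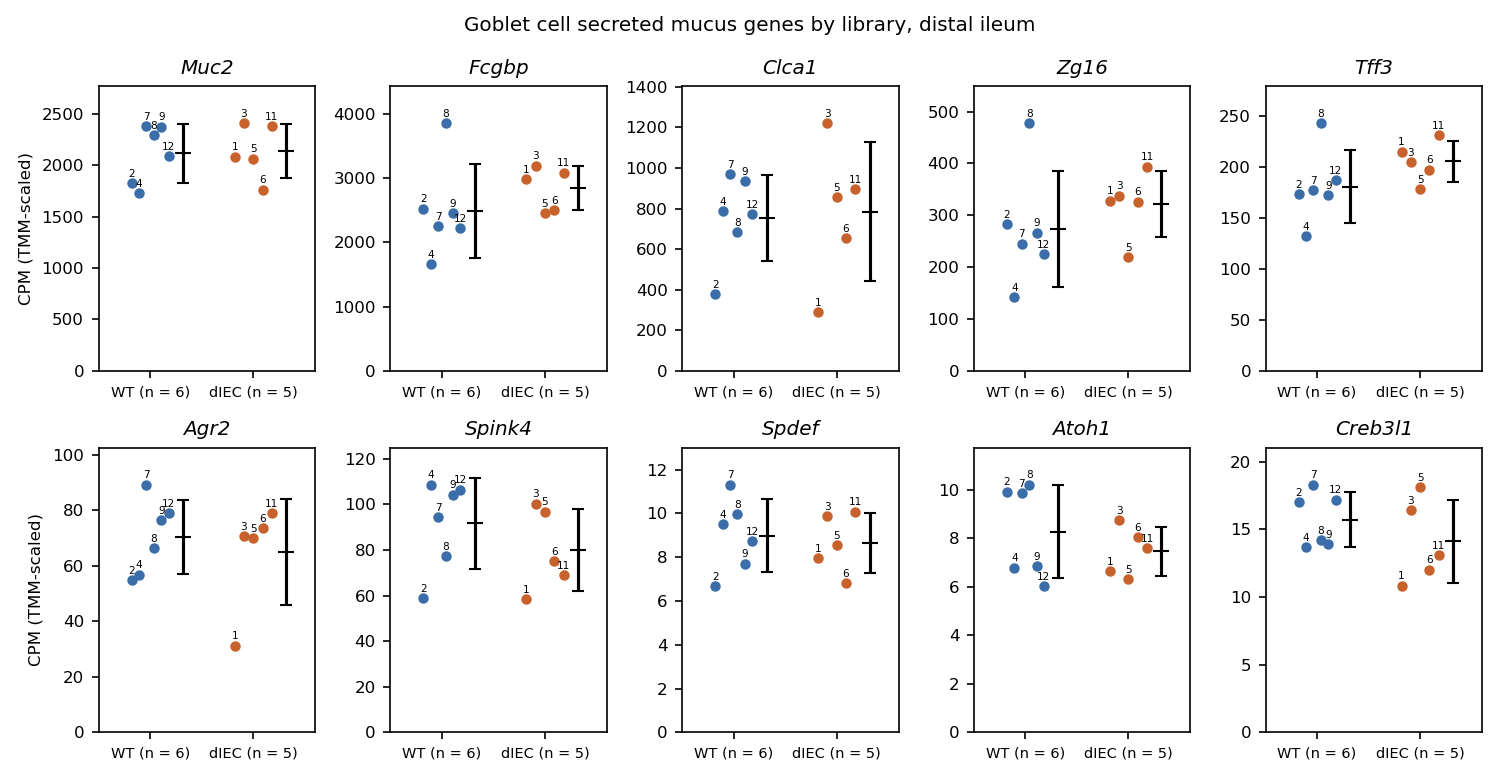
TMM-scaled CPM of each of the 10 mucus genes (linear axis from 0, a scale of its own per gene) in the 6 WT and 5 dIEC libraries. Points are libraries with their replicate number, and bars are the mean and SD. The groups overlap for every gene, and dIEC replicate 1 is the lowest point of Clca1, Agr2, Spink4 and Creb3l1.

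Muc2, the mucin itself (chr7:141690340-141754693, + strand, GRCm38), was the steadiest of the abundant members. WT libraries held 1823, 1725, 2381, 2289, 2376 and 2088 CPM in replicates 2, 4, 7, 8, 9 and 12, and dIEC libraries held 2083, 2408, 2064, 1763 and 2380 CPM in replicates 1, 3, 5, 6 and 11. High and low libraries occurred in both groups, and the lowest and highest of all 11 differed 1.40-fold. The means were 2113 ± 285 CPM for WT (SD, n = 6) and 2139 ± 265 CPM for dIEC (n = 5). The log2 fold change was 0.02 with SE 0.21 (95% interval -0.42 to 0.46, edgeR adjusted p = 0.983, two-sided exact permutation p = 0.840). These values rest on 10135 to 25283 counts per library, so counting error is small beside the spread between mice. A change of more than 1.37-fold upwards, or to less than 0.746 of the WT level, lies outside the interval.

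Fcgbp encodes a large secreted protein with repeated von Willebrand D domains that is bound in the mucus (chr7:28071236-28120862, + strand). Its WT libraries ran from 1657 over a median of 2348 to 3853 CPM, and its dIEC libraries held 2980, 3193, 2450, 2501 and 3083 CPM. All 5 dIEC values fell inside the WT range, whose ends were WT replicates 4 and 8. The means were 2492 ± 733 and 2841 ± 343 CPM, a log2 fold change of 0.19 with SE 0.25 (-0.33 to 0.71, edgeR adjusted p = 0.793).

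Zg16, a small lectin that binds Gram-positive bacteria in mucus (chr7:127050156-127087328, - strand), held 143 to 478 CPM in WT with a median of 256. In dIEC it held 329, 338, 220, 326 and 394 CPM. WT replicates 4 and 8 were again the lowest and the highest of all 11 libraries. The log2 fold change was 0.23 with SE 0.25 (-0.30 to 0.77, edgeR adjusted p = 0.741). Tff3, a trefoil peptide known for its part in epithelial repair (chr17:31125306-31129646, - strand), held 132 to 243 CPM in WT with a median of 176, and 216, 205, 178, 198 and 232 CPM in dIEC. WT replicates 4 and 8 were at the ends here too. The log2 fold change was 0.18 with SE 0.15 (-0.14 to 0.50, edgeR adjusted p = 0.643). Without WT replicate 8 the log2 fold changes of these genes were larger, 0.36 for Fcgbp, 0.47 for Zg16 and 0.29 for Tff3. They then had edgeR adjusted p = 0.293, 0.171 and 0.195 over all genes, so that none was past the threshold, in a fit that called 319 genes.

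Clca1, a secreted metalloprotease that cleaves the Muc2 gel (chr3:145003817-145032776, - strand), varied most. WT libraries held 380, 787, 970, 682, 937 and 772 CPM, and dIEC libraries held 290, 1221, 857, 654 and 896 CPM. The lowest and the highest library were both dIEC, replicates 1 and 3, and differed 4.22-fold. The SD of its log2 CPM within groups was above that of 95.7% of the genes tested. The means were 754 ± 213 and 784 ± 343 CPM (log2 fold change 0.05, SE 0.32, -0.62 to 0.73, edgeR adjusted p = 0.964). Leaving out dIEC replicate 1 gave 0.27 and leaving out dIEC replicate 3 gave -0.16, with no call in either case.

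Spink4 belongs to the Kazal-type serine protease inhibitors (chr4:40920052-40931395, + strand). It held 58.9 to 109 CPM in WT with a median of 99.2, and 58.4, 100, 96.7, 75.01 and 69.0 CPM in dIEC. The lowest library of each group, WT replicate 2 and dIEC replicate 1, lay close together. The log2 fold change was -0.20 with SE 0.18 (-0.58 to 0.18, edgeR adjusted p = 0.680). Agr2, the protein disulphide isomerase of the endoplasmic reticulum that Muc2 production needs (chr12:35992907-36004087, + strand), held 54.9 to 89.1 CPM in WT with a median of 71.3. Its dIEC libraries held 31.2, 70.7, 69.8, 73.6 and 78.8 CPM, so that replicate 1 lay well below the other 4 and below every WT library. The log2 fold change was -0.12 with SE 0.21 (-0.56 to 0.32, edgeR adjusted p = 0.859), and 0.06 without that library.

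The 3 transcription factors were much less abundant and were counted less precisely. Atoh1 (chr6:64729125-64731245, + strand) had 31 to 89 counts per library, Spdef (chr17:27714352-27728955, - strand) 42 to 102, and Creb3l1 (chr2:91982328-92024502, - strand) 75 to 165. Atoh1 held 6.05 to 10.2 CPM in WT with a median of 8.36, and 6.65, 8.76, 6.31, 8.07 and 7.59 CPM in dIEC, all inside the WT range. Spdef held 6.67 to 11.3 CPM in WT with a median of 9.12, and 7.95, 9.88, 8.55, 6.80 and 10.1 CPM in dIEC, again all inside the WT range. Creb3l1 held 13.7 to 18.3 CPM in WT with a median of 15.6, and 10.8, 16.4, 18.1, 12.03 and 13.1 CPM in dIEC, where 3 of 5 libraries were below the lowest WT value. The log2 fold changes were -0.13 (SE 0.17) for Atoh1, -0.05 (SE 0.15) for Spdef and -0.16 (SE 0.14) for Creb3l1, with edgeR adjusted p = 0.785, 0.931 and 0.683.

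**Figure D2:**
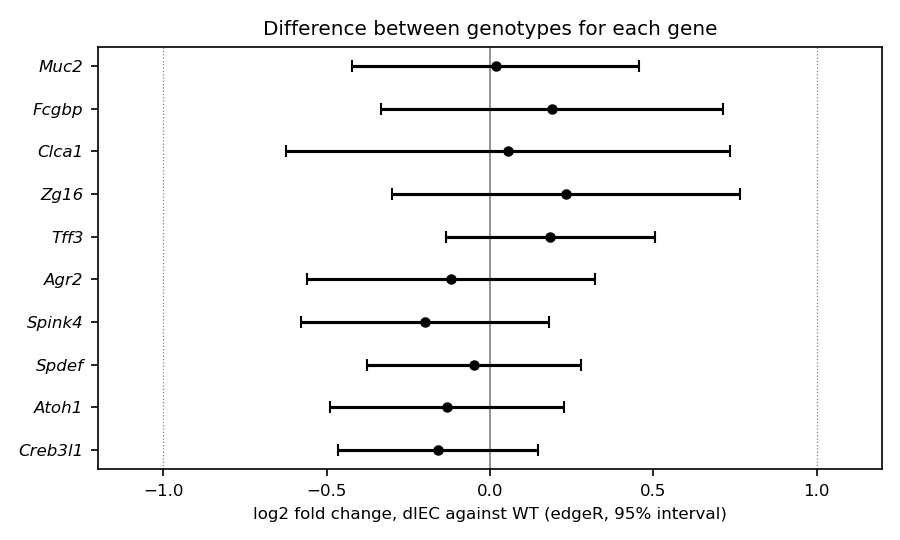
Log2 fold change of each mucus gene, dIEC against WT, from edgeR (points) with its 95% interval (bars). The dotted lines mark a 2-fold change. Every interval includes 0 and stays inside the dotted lines, and the widest is that of Clca1 (-0.62 to 0.73).

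Levels of different genes were compared as CPM per kilobase of exon over all 11 libraries. Tff3 was the highest at 390 ± 63.1 CPM per kilobase (SD, n = 11). It was followed by Muc2 at 298 ± 36.8, Fcgbp at 253 ± 56.3, Zg16 at 235 ± 73.0, Clca1 at 203 ± 70.0 and Spink4 at 181 ± 39.9 CPM per kilobase. From Muc2 to Spink4, neighbours in this order differed by less than the larger of their SDs. These 6 genes ranked 39 to 63 among 12487 protein-coding genes tested. Agr2 stood apart below them at 52.6 ± 12.1 CPM per kilobase. Creb3l1 (5.76 ± 0.977), Spdef (3.83 ± 0.635) and Atoh1 (3.73 ± 0.732) were lower again, and the last 2 did not differ beyond their spread. The upper order depends on the gene model: with the longest protein-coding transcript as the length, Muc2 came first at 726 CPM per kilobase and Zg16 second at 408, ahead of Tff3. The annotated exons of Muc2 cover 7127 bases and its longest coding transcript 2926 bases. The annotation used marks Muc2 as a fragmented locus, so its length is uncertain. Both of its levels per kilobase, and its place in either order, are therefore uncertain too.

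A ratio within a library does not depend on how libraries are scaled, so each gene was also expressed per 1000 counts of 16 general epithelial genes. Muc2 stood at 594 ± 111 in WT (range 422 to 768) and 486 ± 24.2 in dIEC (range 452 to 511), a log2 ratio of means of -0.29. The two-sided exact permutation p was 0.0390, or 0.312 after adjustment over all genes tested. A p under 0.05 in this measure was reached by 12.6% of all genes. All 10 mucus genes had the lower mean in dIEC, as did 88.9% of all genes, with log2 ratios from -0.51 for Spink4 to -0.00 for Zg16. The adjusted exact permutation p of the 10 ran from 0.312 to 0.992. The summed level of the 16 epithelial genes was 3667 ± 919 CPM in WT (range 3007 to 5426) and 4403 ± 522 CPM in dIEC (range 3677 to 4958), and its part in these ratios was not tested.

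The members did not vary as a single block from mouse to mouse. Correlations of log2 CPM over the 11 libraries were computed for all 45 pairs, with p from 100000 permutations and Benjamini-Hochberg adjustment over the 45. Those with Muc2 were planned and the others were added after the data were seen. The points share library scaling and the make-up of the tissue piece. Fcgbp, Zg16 and Tff3 varied together across mice. Pearson's r was 0.95 for Fcgbp and Zg16 (permutation p = 3e-05, adjusted p = 9e-04, Spearman's rho 0.93 with permutation p = 0.00012), and 0.84 without the 2 libraries farthest from the median of Fcgbp, WT replicates 4 and 8. It was 0.94 for Zg16 and Tff3 (permutation p = 4e-05, adjusted p = 9e-04, rho 0.83 with permutation p = 0.00265) and 0.82 without those libraries. For Fcgbp and Tff3 it was 0.93 (permutation p = 1e-04, adjusted p = 0.0015, rho 0.80 with permutation p = 0.00472) and 0.79 without them.

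Clca1 followed Agr2 and Spink4 instead. Clca1 and Agr2 had r = 0.83 (permutation p = 0.00341, adjusted p = 0.0307, rho 0.63 with permutation p = 0.0438), and Clca1 and Spink4 had r = 0.79 (permutation p = 0.00305, adjusted p = 0.0307, rho 0.54 with permutation p = 0.0945). Both relations rested on WT replicate 2 and dIEC replicate 1: without them r was 0.28 and 0.37. Clca1 showed r of -0.10, -0.14 and -0.11 with Fcgbp, Zg16 and Tff3 (permutation p = 0.752, 0.674 and 0.728). Ratios between members within a library, also added after the data were seen, ranged widely over the mice. Zg16 had 182 counts per 1000 counts of Clca1 in WT replicate 4 and 1135 in dIEC replicate 1, a 6.24-fold range over the 11 libraries. Clca1 had 139 counts per 1000 counts of Muc2 in dIEC replicate 1 and 507 in dIEC replicate 3.

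Muc2 had no correlation with another member that passed the adjusted threshold. Its r with the other 9 members ran from 0.17 (Spink4) to 0.60 (Spdef). For Spdef, the closest, permutation p was 0.0536 (adjusted p = 0.294, rho 0.63 with permutation p = 0.0451), and r was 0.76 without WT replicate 4 and dIEC replicate 6. For comparison, r of Muc2 with the other 15910 genes tested was computed after subtracting group means, unlike the values above. Its median was 0.005, with 5th and 95th percentiles of -0.60 and 0.61. Computed in that way, r of Muc2 with Spdef was 0.61. Spdef had 3.24 to 5.51 counts per 1000 counts of Muc2, a 1.70-fold range.

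**Figure D3:**
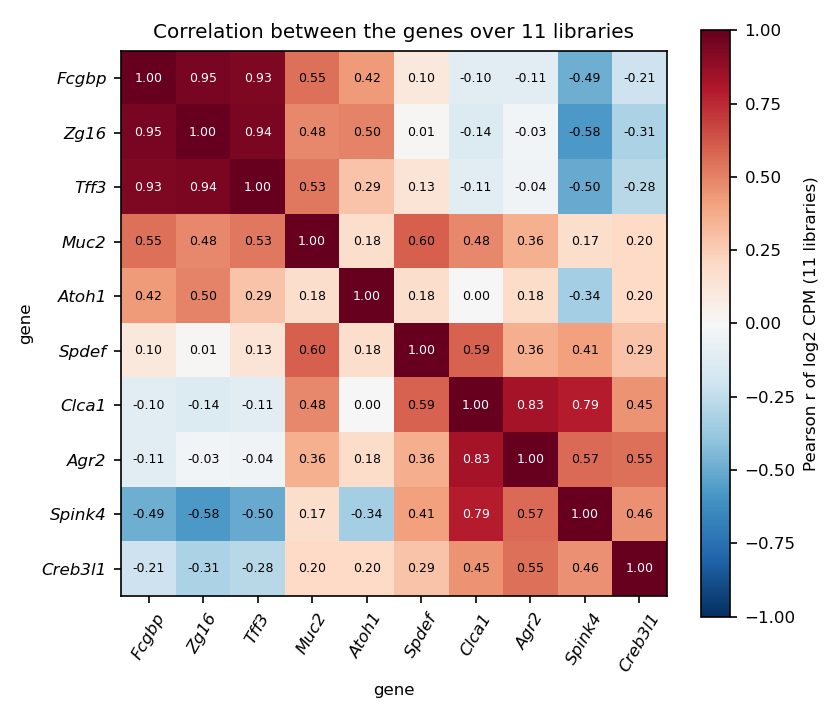
Pearson's r of log2 CPM between the 10 mucus genes over the 11 libraries, with the value in each cell. Fcgbp, Zg16 and Tff3 form a block of 0.93 to 0.95, and Clca1 is nearest to Agr2 (0.83) and Spink4 (0.79).

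Fcgbp and Tff3 also varied with the epithelial content of the piece. A list's score is the mean log2 CPM of its measured genes. The 10 members were set against 22 lists, of which one is the other goblet cell genes, in 220 relations added after the data were seen and adjusted together. Fcgbp correlated with the epithelial content score at r = 0.87 (permutation p = 0.00025, adjusted p = 0.0128, rho 0.78 with permutation p = 0.00672, r = 0.78 without WT replicate 8 and dIEC replicate 11). Tff3 did so at r = 0.85 (permutation p = 0.00045, adjusted p = 0.0165, rho 0.85 with permutation p = 0.00194, and 0.73 without those libraries). Zg16 had r = 0.76 with that score, which did not pass the adjusted threshold (permutation p = 0.00539, adjusted p = 0.06975, and 0.57 without those libraries). With the score of fibroblast and matrix genes the sign was opposite. Tff3 had r = -0.86 there (permutation p = 0.00017, adjusted p = 0.0125, rho -0.91 with permutation p = 2e-04) and -0.85 without WT replicates 4 and 7. Fcgbp had r = -0.79 there. With neuron and glia genes r was -0.79 for Fcgbp and -0.88 for Tff3, and with endothelial genes -0.84 and -0.86. With genes of mucus release it was 0.84 and 0.78, and with absorptive enterocyte genes 0.82 for Fcgbp. These relations also passed the adjusted threshold. Zg16 had the same sign in each, and none of its relations passed. WT replicate 8 had the highest epithelial score of all libraries (7.99, others 7.18 to 7.89). Clca1 instead followed the other goblet cell genes, at r = 0.85 (permutation p = 0.00029, adjusted p = 0.0128, rho 0.85 with permutation p = 0.00177, and 0.90 without dIEC replicates 1 and 6). Muc2 had r = 0.72 with that score, which did not pass the adjusted threshold (adjusted permutation p = 0.120). Fcgbp, Zg16 and Tff3 had r of 0.006, -0.12 and -0.06 with it (permutation p = 0.988, 0.734 and 0.857).

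Other genes of goblet cells and of the making of mucus were followed in lists. None of the 22 lists held a gene past the adjusted threshold, so counts are of unadjusted edgeR p under 0.05, which 775 of 15911 genes reached upwards and 921 downwards. Of 34 further goblet cell genes 32 were measured, 11 above and 21 below 0, with a median log2 fold change of -0.04. Only Guca2a, which encodes the hormone guanylin, had p under 0.05, at 64.5 ± 14.4 CPM in WT and 89.0 ± 27.2 CPM in dIEC (log2 fold change 0.47, SE 0.20, edgeR adjusted p = 0.443). Retnlb and Ang4, antimicrobial products that type 2 cytokines raise, are named after their values were seen: Retnlb stood at 2.87 ± 2.33 and 2.76 ± 2.78 CPM and Ang4 at 113 ± 58.3 and 112 ± 60.4 CPM.

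Of 16 measured genes of secretory fate and Notch signalling, 5 were above and 11 below 0 (median -0.12). Notch signals hold crypt cells away from the secretory lineage. The ligand Jag1 had a log2 fold change of -0.43 (SE 0.15, edgeR adjusted p = 0.427), the receptor Notch1 of -0.25 (SE 0.12, adjusted p = 0.468) and the epithelial factor Elf3 of 0.38 (SE 0.15, adjusted p = 0.428). Those 3 were the only ones with an unadjusted p under 0.05.

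Of 32 measured genes of mucin folding in the endoplasmic reticulum, 25 were above and 7 below 0, with a median of 0.12, beside 48.8% of all genes above 0, and 4 had an unadjusted p under 0.05, all upwards. Xbp1, the transcription factor of the unfolded protein response that secretory cells need, stood at 65.4 ± 6.87 CPM in WT and 89.8 ± 8.87 CPM in dIEC (log2 fold change 0.46, SE 0.11, edgeR adjusted p = 0.427). The co-chaperone Dnajb11 had a log2 fold change of 0.52 (SE 0.14) and the stress response factor Atf4 of 0.25 (SE 0.10), with edgeR adjusted p = 0.427 and 0.429. Agr2, counted among the members and not in this list, had -0.12. Epithelial genes in general leaned the same way: all 16 genes of the epithelial content list and 24 of 26 absorptive enterocyte genes were above 0. Their part in the counts for folding, glycosylation and release was not tested, nor was the difference of any list from other genes.

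Of 30 measured genes of mucin O-glycosylation and sulfation, 23 were above and 7 below 0 (median 0.25). Of these, 9 had an unadjusted p under 0.05 upwards and 2 downwards. B4galt1, a galactosyltransferase, stood at 50.6 ± 14.8 CPM in WT and 85.9 ± 23.9 CPM in dIEC (log2 fold change 0.76, SE 0.21). B3gnt7, which extends glycan chains, stood at 8.45 ± 5.08 and 19.9 ± 4.74 CPM (1.22, SE 0.33). Fut2, which adds the terminal fucose of secreted mucins, stood at 6.63 ± 4.47 and 20.6 ± 15.6 CPM (1.62, SE 0.53). Among those below 0, the sialyltransferase St3gal6 stood at 12.6 ± 2.42 and 8.56 ± 1.95 CPM (-0.56, SE 0.18). These 4 had edgeR adjusted p = 0.427. St6galnac6, another sialyltransferase, stood at 4.77 ± 1.43 and 3.20 ± 0.816 CPM (-0.58, SE 0.25, edgeR adjusted p = 0.444).

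Of 24 measured genes of mucus release and unfolding, 16 were above and 8 below 0 (median 0.13), 5 with an unadjusted p under 0.05 upwards and 1 downwards. Guca2b, which encodes uroguanylin, stood at 19.0 ± 5.77 CPM in WT and 50.2 ± 23.4 CPM in dIEC (log2 fold change 1.40, SE 0.31, edgeR adjusted p = 0.427). Its receptor gene Gucy2c stood at 80.9 ± 23.9 and 122 ± 24.5 CPM (0.59, SE 0.19, edgeR adjusted p = 0.427), and the crosslinking enzyme Tgm2 had 0.24 (SE 0.11, edgeR adjusted p = 0.444). The sodium, potassium and chloride cotransporter Slc12a2 was on the other side, at 125 ± 8.90 and 104 ± 17.5 CPM (-0.27, SE 0.12, edgeR adjusted p = 0.455). Of 14 other mucins 7 were measured, 6 above and 1 below 0 (median 0.30). The membrane mucin Muc3a had 0.50 (SE 0.16, edgeR adjusted p = 0.427). Among 11 measured genes of type 2 and other cytokine signals, 7 were above 0 and the receptor chains Il4ra and Il13ra1 and the transcription factor Stat3 had an unadjusted p under 0.05 (0.40, 0.33 and 0.36, edgeR adjusted p = 0.427 each).

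**Figure D4:**
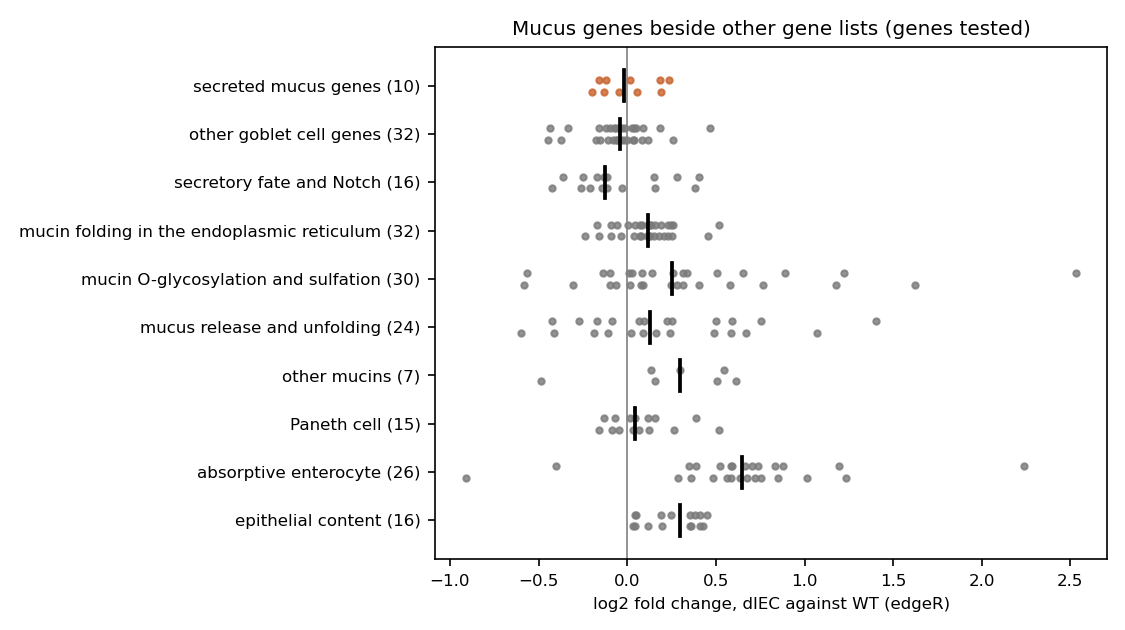
Log2 fold change, dIEC against WT (edgeR), of every tested gene of 10 lists, with the number tested in parentheses and the median as a bar. The 10 mucus genes (first line) have a median of -0.02, beside 0.65 for absorptive enterocyte genes and 0.30 for epithelial content genes.

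The other cells of the piece were described by the same lists. Paneth cells, the antimicrobial secretory cells of the crypt, had 15 measured markers, 10 above and 5 below 0 (median 0.04). Their summed level was 1703 to 4893 CPM in WT and 1944 to 3974 CPM in dIEC. None of these had an unadjusted p under 0.05, and the most abundant, Lyz1 and Defa24, had log2 fold changes of -0.09 (SE 0.26) and 0.06 (SE 0.27). Tuft and enteroendocrine cells had 9 measured markers each, 3 above and 6 below 0 (medians -0.16 and -0.16), none with an unadjusted p under 0.05. The most abundant were Ptgs1 (-0.16, SE 0.17) and the granule protein gene Chgb (-0.16, SE 0.19).

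Absorptive enterocytes had 26 measured markers, 24 above and 2 below 0 (median 0.65), 6 with an unadjusted p under 0.05 upwards. Their summed level was 3564 to 14115 CPM in WT and 5484 to 13025 CPM in dIEC. The lowest p-values were those of the fructose transporter Slc2a5 (log2 fold change 1.23, SE 0.40), the disaccharidase Sis (0.83, SE 0.32) and the retinol-binding protein gene Rbp2 (1.197, SE 0.46). All 16 epithelial content genes were above 0 (median 0.30), with Elf3 and the claudin Cldn3 (0.35, SE 0.15) under an unadjusted p of 0.05. The 7 measured colon markers were above 0 as well (median 0.39), among them Saa3 (1.48, SE 0.65) and the anion exchanger Slc26a3 (0.75, SE 0.33).

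Crypt and dividing cells lay on the other side. Of 12 crypt stem cell genes 11 were below 0 (median -0.24), with Tnfrsf19 at -0.80 (SE 0.27) and Slc12a2, given above, under an unadjusted p of 0.05. All 20 proliferation genes were below 0 (median -0.25), and the centromere protein gene Cenpa had the only unadjusted p under 0.05 (-0.54, SE 0.18). The proliferation genes summed to 268 to 347 CPM in WT and 130 to 384 CPM in dIEC. The library with the lowest Clca1, Agr2, Spink4 and Creb3l1, dIEC replicate 1, had the lowest proliferation and crypt scores. It was also lowest or highest in several other list scores, given below.

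Markers of the wall beneath the epithelium lay mostly below 0. All 19 fibroblast and matrix genes were below 0 (median -0.60), 13 with an unadjusted p under 0.05, with a summed level of 768 to 1940 CPM in WT and 729 to 1204 CPM in dIEC. The lowest p-values were those of Lum (-1.2002, SE 0.32), Col1a2 (-1.01, SE 0.32) and Sparc (-0.82, SE 0.26), all of the extracellular matrix. All 17 smooth muscle genes were below 0 too (median -0.41), at 3531 to 7491 CPM in WT and 2061 to 4931 CPM in dIEC, with Synpo2 (-0.65, SE 0.25) and Kcnmb1 (-0.51, SE 0.21) under an unadjusted p of 0.05. Of 12 neuron and glia genes 11 were below 0 (median -0.39), Snap25 (-0.75, SE 0.25), Gfap (-0.64, SE 0.27) and Tubb3 (-0.58, SE 0.25) with an unadjusted p under 0.05. Of 14 endothelial genes 13 were below 0 (median -0.28), with Flt4 (-0.62, SE 0.23), Tie1 (-0.58, SE 0.24) and Pecam1 (-0.39, SE 0.18) likewise.

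T cell and intraepithelial lymphocyte genes had the largest median of the 22 lists. All 13 measured were above 0 (median 0.75), and 8 had an unadjusted p under 0.05. Their summed level was 27.8 to 56.6 CPM in WT and 48.1 to 95.1 CPM in dIEC. The lowest p-values were those of the chemokine Ccl5 (log2 fold change 1.24, SE 0.25), the T cell receptor subunit Cd3e (0.87, SE 0.23) and Cd7 (1.24, SE 0.32). Neither the B and plasma cell list (6 of 7 above 0, median 0.11) nor the macrophage and neutrophil list (3 of 10 above 0, median -0.04) held a gene with an unadjusted p under 0.05. Their most abundant genes were Pigr, which epithelial cells express (0.28, SE 0.23), and Lyz2 (-0.19, SE 0.28). The edgeR adjusted p of the genes with an unadjusted p under 0.05 in these cell type lists was 0.427 or higher in every case.

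In none of these lists was a marker of the count table at 0 in every library. Only 4 of the 31168 genes in the table were, so this says little about the markers. Several listed genes were absent from the table, among them other mucins (10 of 14 present) and colon markers (10 of 12 present). The part of the shifts above in mucus gene values was not tested beyond fits with an epithelial or a smooth muscle score as covariate. With the epithelial score, 9 of the 10 members had a log2 fold change below 0, beside 50.4% of all genes. With the smooth muscle score 6 of the 10 did, beside 52.0% of all genes. No member was past the threshold in either fit.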

How the data were processed

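RNA from 11 pieces of distal ileum was sequenced, 6 WT and 5 dIEC, each taken as 1 mouse. Groups follow the genotype label of each sample, since the series' design text lists both as Cre-negative. The p-values reflect the spread among these mice, and no source used here names a cage, litter or batch. Per the labels' protocols, libraries were made from total RNA with a directional NEBNext Ultra kit. TopHat2 and the build mm10 are named in the submitters' processing notes. How reads were counted (the tool, the strand setting and multi-mapped reads) is not given in the sources used here. This bears on Muc2 and Fcgbp, which hold internal repeats. No member shared exons with another annotated gene.

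The authors deposited raw read counts per gene as whole numbers. Of 31169 rows, 1 named no gene (0.00778 to 0.0147% of the counts) and was left out. Libraries of a group differed by more than counting noise in every pair (chi-square over its degrees of freedom was 9.24 to 62.4). Genes were kept by filterByExpr (15911 genes, at least 99.3% of the counts of a library), scaled by TMM and tested with edgeR 4.0.16 (R 4.3.3), quasi-likelihood F test with robust estimates, dIEC against WT, Benjamini-Hochberg adjustment over all genes, threshold 0.05. Standard errors were obtained as the absolute log2 fold change over the root of F, and intervals are 95%. CPM and ratios were compared by two-sided exact permutation over 462 splits. Correlations used log2 CPM with a prior count of 2. Gene models were those of GENCODE vM21 and upstream sequences those of RefSeq (GRCm38.p6). The code was tested on simulated data. Alternatives were other scalings, filters and row sets, DESeq2 1.42.0, limma-voom (limma 3.58.1), covariates for tissue make-up and ribosomal share, and leaving out each library.

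The members and lists were chosen with earlier results of these data known. Named genes were the members and, from every other list, all genes past the threshold, otherwise up to 3 per direction of lowest unadjusted p under 0.05, otherwise the 1 or 2 most abundant. The genes most like the members were the 10 highest by Pearson's r with the mean standardised log2 CPM of the members, group means removed, among named genes with a mean of at least 10 CPM.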

Additional observations from a re-analysis of the deposited data

Results flagged for a closer look

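Agr2 in dIEC replicate 1 stood at 31.2 CPM, while the other 4 dIEC libraries held 69.8 to 78.8 CPM. The gap to the nearest was 0.811 of the range of the group, against a 95% limit of 0.710 for 5 samples. It was the only one of 20 sets of values so tested (10 genes in 2 groups) to pass its limit, and chance passes about 5 in 100. The same library had the lowest Clca1, Spink4 and Creb3l1 of all 11. Its crypt stem cell score (2.71, others 3.38 to 4.196) and proliferation score (2.25, others 2.50 to 3.56) were the lowest. So were its scores of secretory fate (3.83), endoplasmic reticulum folding (4.67), smooth muscle (6.00) and fibroblast and matrix genes (4.68). Its scores of O-glycosylation (4.83), other mucins (5.62), cytokine signals (4.56), enteroendocrine cells (2.705) and colon markers (5.31) were the highest. In the remaining lists it was at neither end, and the part of these scores in its Agr2 level was not tested.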

How the results depend on the processing

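None of the 10 mucus genes was past the adjusted threshold under any of 23 alternatives, and the lowest adjusted p among them was 0.171 (edgeR, Zg16 without WT replicate 8). In that fit the unadjusted edgeR p was under 0.05 for Zg16 (0.0259) and Tff3 (0.0337), as for 3314 of its 15794 genes. No other alternative gave a member such a p. The side of 0 was less stable, as the log2 fold changes of the mucus genes are close to 0. Muc2 changed side with library size alone (-0.18), upper quartile scaling (-0.022), the epithelial score as a covariate (-0.12) and the smooth muscle score as a covariate (-0.074), and ran from -0.036 to 0.080 when each library was left out. Library size alone moved the median of all genes to -0.22 and put 82.6% of them below 0, in place of 51.2%. Clca1 changed side with library size alone (-0.14) and the epithelial covariate (-0.039), and ran from -0.16 to 0.27 with libraries left out. Fcgbp and Zg16 did so with the epithelial covariate (-0.069 and -0.056). Spdef did so under limma-voom (0.021) and with the ribosomal share as a covariate (0.052), and ran from -0.12 to 0.027 with libraries left out, while Agr2 ran from -0.20 to 0.058. Of the members, 9 were below 0 with the epithelial covariate, in place of 5, and 4 to 7 with libraries left out. Zg16 per count of Epcam alone had a log2 ratio of 0.033. With the longest coding transcript as length, levels were 726 (Muc2), 334 (Fcgbp), 408 (Zg16), 86.6 (Agr2) and 4.60 (Spdef) CPM per kilobase.

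The number of genes past the threshold, 1 in edgeR, was 2 with library size alone, 11 in DESeq2, 2 with the ribosomal covariate, and 1 to 319 with libraries left out. The 319 came without WT replicate 8, and the cause was not tested. No paired analysis was possible because every replicate number occurs in 1 group only. Depth limits Atoh1, Spdef and Creb3l1 most, with 31 to 165 counts per library.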

Other observations

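The genes that varied most like the 10 mucus genes within the groups were sought over 11 libraries and 6414 genes. Ddost, a subunit of the oligosaccharyltransferase that starts N-glycosylation, had the highest correlation (Pearson's r 0.92, Spearman's rho 0.90 with the mean standardised level of the members). It was followed by Sypl (0.89), Taldo1 (0.89), Hepacam2 (0.89), Sdr39u1 (0.88), Naa35 (0.88), Agpat1 (0.88), Ganab (0.87), Fam160a2 (0.87) and G6pdx (0.87). Hepacam2 is among the other goblet cell genes listed, and Ganab encodes the glucosidase that trims N-glycans during folding. These were chosen as the highest of all genes compared, so the values are a description.

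The highest of the 220 relations between members and lists was that of Spink4 with tuft cell markers. The level of Spink4 correlated with the mean level of 9 measured tuft cell markers at r = 0.92 over 11 libraries (permutation p = 7e-05, adjusted p = 0.0121 over 220 relations, rho 0.94 with permutation p = 9e-05), and at 0.88 without WT replicates 2 and 4. Spink4 also had r = 0.77 with the other goblet cell genes and 0.71 with Paneth cell markers. Neither passed the adjusted threshold (permutation p = 0.00739 and 0.0146, adjusted p = 0.0860 and 0.120). Tuft cells are chemosensory epithelial cells. Of the most abundant listed markers, Ptgs1, which other cells also express, averaged 21.2 ± 4.61 CPM over the WT libraries (SD, n = 6) and 19 ± 4.43 CPM over the dIEC libraries (n = 5), and Dclk1 averaged 14.0 ± 2.64 CPM (WT) and 12.5 ± 3.33 CPM (dIEC). Creb3l1 ran against the score of the type 2 and other cytokine signal genes (r = -0.78, permutation p = 0.00277, adjusted p = 0.0438, rho -0.73 with permutation p = 0.0146) and reached -0.63 without WT replicate 12 and dIEC replicate 1. Muc2 had r of -0.01 with the tuft cell score and 0.17 with the cytokine signal score (permutation p = 0.974 and 0.630).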
